A study of Danio rerio with 12 samples.

Results

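The genes described here, in zebrafish brain, carry the symbols of proteins of the cytosolic ribosome or of paralogues named after them. They were chosen by gene symbol, ignoring case: rpl, rps or rplp followed by a number, with few endings allowed. The S6 kinases and the mitochondrial ribosomal proteins were left out, and so were symbols of other form, such as RPL36AL and RPSA2. Genes also had to exceed 0.5 CPM in 4 or more libraries. CPM are read counts scaled by the size of the library. Of 32105 gene rows, 82 matched by symbol, and 81 of those also passed the CPM minimum, out of 19645 genes that did so in all. By symbol, the members are 46 genes of the large subunit and 35 of the small subunit. They have 77 symbols, since 4 symbols, RPL5 and RPS26 among them, each stand for 2 gene identifiers. The name table writes many zebrafish genes under a human symbol in capitals, and symbols are printed as they stand there.

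Brain RNA from male zebrafish aged 6 months was sequenced from 3 groups of 4 libraries each: wild type, and 2 transgenic lines with a miR-29 sponge, an RNA with binding sites that can occupy the microRNA miR-29. The labels write the lines as actb1::miR-29sponge and kif5a::miR-29sponge, after a cytoplasmic actin gene and a neuronal kinesin gene. They do not describe the construct further, and they do not say whether a library is 1 brain or a pool, so the p-values below rest on the spread of these libraries alone, and that spread may be technical. Libraries are called by group and number (actb1 sponge 3), where the number has no meaning beyond a name. In bulk tissue, fewer cells of a type and less RNA per cell cannot be told apart.

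A eukaryotic ribosome holds 1 copy of nearly every one of its proteins, and the mRNAs of these proteins are among the most abundant in any cell. These mRNAs begin with a run of pyrimidines (a TOP sequence) through which mTOR signalling and the protein LARP1 control their translation and stability as a class. Proteins that are made in excess of their partners are degraded. In human, loss of 1 copy of any of several of these genes causes Diamond-Blackfan anaemia, and zebrafish with 1 inactive copy of one of several such genes develop nerve sheath tumours.

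The libraries held 20884576 to 33573243 gene counts, of which the 81 genes took 574620 to 1708462, so that counting error is small beside the spread between libraries. The library actb1 sponge 3 stood apart: 2.24% of its counts came from mitochondrial genome genes, where the other 11 had 9.37% to 14.0%. All 10 neuronal markers examined were measured in every group, with summed levels of 5333 to 7803 CPM. Reads were not strand-marked, and the sources used here do not say how reads that fit several copies of a gene were assigned, so values of near-identical copies are uncertain. The medians, counts of genes and fold changes of the comparisons with the actb1 sponge line are therefore given without actb1 sponge 3 as well, where fits without it were made.

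Levels in wild type are given per gene length, as TPM (counts per base of gene, scaled to a common total). They were computed from the counts and the gene lengths that the deposited files imply, which need not be transcript lengths. Over the 81 genes these lengths ran from 346 to 3569 bp, and TPM fell with them (Spearman's rho -0.56), so the TPM order depends on the lengths used. Among the 81 genes, rpl32 and RPS15 ranked 1 and 6 by TPM but 27 and 48 by CPM. The 81 genes had a median of 554 TPM, against 10.6 TPM over all tested genes, and 76 of them lay among the 500 most abundant genes. The highest was rpl32, a large-subunit protein gene, at 1449 ± 121 TPM (SD, n = 4). It was followed by RPLP0, the protein that anchors the acidic stalk where elongation factors dock, at 1353 ± 94.9 TPM. RPS7, RPS14, RPL35 and RPS15 came next, with means of 1315, 1301, 1212 and 1159 TPM. Each neighbouring pair in this order differed by less than the larger of their SDs, which ran from 94.9 to 132 TPM over the 6 genes. These SDs include variation that the genes share between libraries, so they do not settle the order of neighbours. The ends of the order did not overlap, with 1333.1 to 1615.6 TPM for rpl32 and 1041.5 to 1319.9 TPM for RPS15.

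The low end of the family consisted of paralogues. RPL7L1, an RPL7-like gene, stood at 26.0 ± 2.7 TPM, rps27l at 51.2 ± 4.1 TPM and RPL22L1 at 140 ± 11.1 TPM. On plain library totals rps27l and RPL7L1 were also the 2 members nearest the CPM minimum, with means of 17.4 and 27.5 CPM. The 1 gene that matched by symbol and fell outside had a mean of 0.386 CPM and 127 counts in all 12 libraries together. None of the 81 genes therefore lay close to the minimum.

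**Figure D1:**
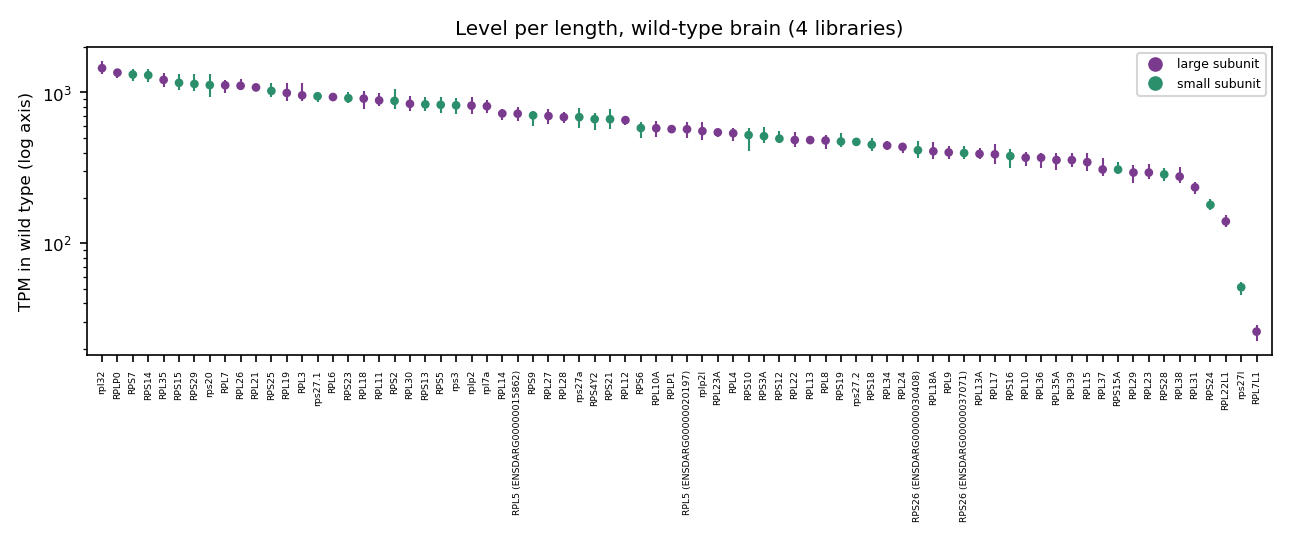
Level per gene length of 76 of the 81 genes in the 4 wild-type libraries, as mean (point) and lowest to highest TPM (line) on a log axis, ordered by level and coloured by subunit. Levels run from 26.0 to 1449 TPM around a median of 554 TPM over the 81 genes, and the paralogues RPL7L1, rps27l and RPL22L1 form a low tail.

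The symbols of 70 of 79 standard ribosomal proteins were found among the 81 genes. RPSA2, RPL36AL and FAU, which encode ribosomal proteins under symbols that the selection did not take, and RACK1, a scaffold protein of the small subunit, were measured as well and are given further on for comparison. Between the 4 wild-type libraries the 81 genes varied little: their coefficient of variation in CPM had a median of 9.85%, against 12.7% over all tested genes. It ranged from 4.06% to 27.9% over the 81 genes. Most tested genes had lower levels than these, and the variation of genes of like level was not computed. Among the steady genes were rps27.2 (4.7%), RPL12 (4.9%), which encodes a protein at the base of the stalk, and RPL7L1 (5.1%). Among the variable ones were rps20, RPL3 and RPL37, at 16.0%, 15.9% and 15.8%. RPL3 lies near the peptidyl transferase centre, where peptide bonds form.

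The genes varied together from library to library. For each gene, log2 CPM in a library was set against its wild-type mean, and the median of these deviations was taken over the 81 genes. In the wild-type libraries 1 to 4 the median deviation was -0.15, 0.18, -0.01 and -0.02. In the actb1 sponge libraries it was -0.13, -0.24, 0.77 and 0.30, and in the kif5a sponge libraries -0.27, -0.07, -0.11 and -0.32. The actb1 sponge group thus held both the 2 highest libraries and 2 low ones, and its range contained that of wild type, while all 4 kif5a sponge libraries lay below wild type 3 and 4 but 2 of them above wild type 1. The same median over all tested genes stayed between -0.025 and 0.007 in every library.

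Within a library the genes deviated by like amounts. The SD over the 81 genes was 0.048 to 0.122 on the log2 scale in 11 libraries and 0.394 in actb1 sponge 3, against 0.398 to 0.832 over all tested genes. Most tested genes had lower levels than the 81 genes, and no SD over genes of like level was computed. In wild type 1 and in kif5a sponge 4, 0 of the 81 genes were above their wild-type mean. In wild type 2, by contrast, 79 were above it, and in actb1 sponge 3 and 4 it was 80 each. Large and small subunit genes had medians that lay close together in each library, for example -0.31 and -0.32 in kif5a sponge 4 and 0.29 and 0.31 in actb1 sponge 4. In actb1 sponge 3 they were 0.70 and 0.83.

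**Figure D2:**
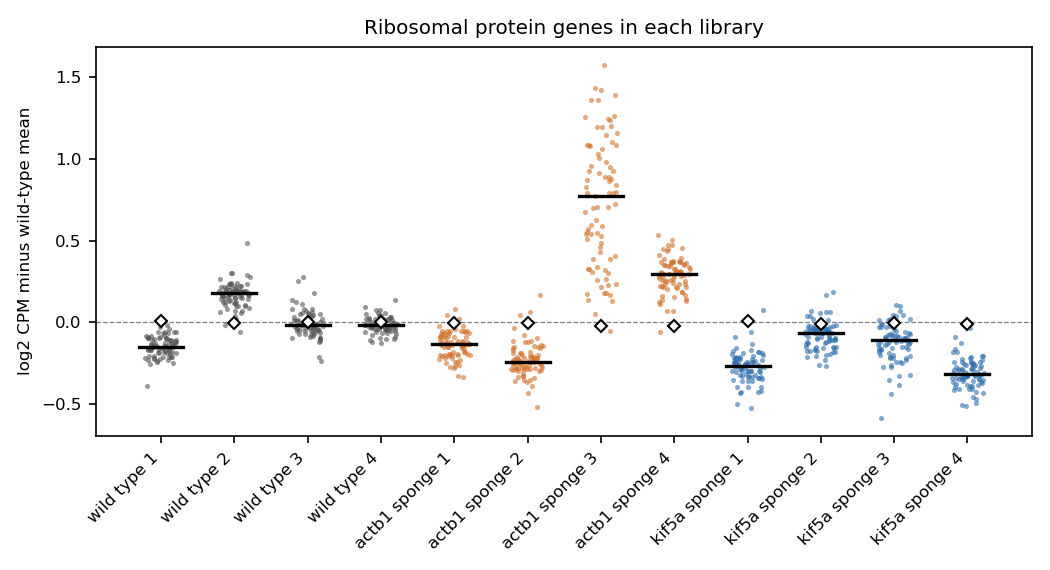
Deviation of each of the 81 genes from its own wild-type mean, in log2 CPM, in each of the 12 libraries, with a bar at the median of each library and a diamond at the median over all tested genes. The points of a library lie close together except in actb1 sponge 3, where they spread from -0.05 to 1.58 around a median of 0.77.

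Ranked over the 12 libraries, 66 of the 81 genes (81.5%) were highest in actb1 sponge 3, where 22.9% of all tested genes were highest, and 14 (17.3%) were highest in actb1 sponge 4, against 12.0% of all. At the other end, 49 genes (60.5%) were lowest in kif5a sponge 4, against 4.86% of all genes, 21 (25.9%) in kif5a sponge 1, against 7.76%, and 8 (9.88%) in actb1 sponge 2, against 5.5%. These shares describe single libraries and say nothing of their cause.

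The deviations in actb1 sponge 3 were uneven. They ran from -0.05 for RPS18, a protein of the small-subunit head, to 1.58 for rplp2l, a stalk protein, which is a 2.98-fold higher level than the wild-type mean. In all, 23 genes were more than 1 above their wild-type mean on the log2 scale, 33 lay between 0.5 and 1, and 25 lay at or under 0.5. Both subunits were found at both ends, with 12 of 46 large and 11 of 35 small subunit genes above 1, and 15 large and 10 small at or under 0.5. The deviation was not ordered by gene length (Spearman's rho -0.020 across the 81 genes) or by the wild-type CPM (rho 0.089), values that describe genes of 1 library. By contrast, the deviations in actb1 sponge 4 were even, with an SD of 0.105 over the genes, and 14 genes were higher in actb1 sponge 4 than in actb1 sponge 3.

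Some other features also stood apart in actb1 sponge 3. The 9 microglial markers measured summed to 1339 CPM, against 318 to 601 CPM in the other 11 libraries, with 6 of 9 above their wild-type mean. Only 2 of these 9 markers were highest of the 12 libraries there, however. Their median deviation was 0.71, below the 1.41 of wild type 4. Fibroblast and meningeal markers summed to 389 CPM (6 of 8 above), within the 147 to 465 CPM of the others, and neuronal markers to 5333 CPM (3 of 10 above), below the 6526 to 7803 CPM of the others. Proliferation markers summed to 169 CPM, against 96.2 to 166 CPM, and oligodendrocyte markers to 12247 CPM, against 14595 to 25725 CPM, with 1 of 9 above. Radial glial markers summed to 6792 CPM, against 5603 to 6652 CPM, and red blood cell markers to 268 CPM, within the 121 to 270 CPM of the others. Rod photoreceptor markers had a median deviation of 3.28 to 4.78 in actb1 sponge 1, 2 and 3 and in kif5a sponge 2 and 3, libraries in which the ribosomal protein genes were low as well as high. No marker of these lists was at 0 counts in all libraries. Other tested genes shorter than 1000 bp (1774 genes) had a median deviation of 0.11 in actb1 sponge 3 and 0.15 in actb1 sponge 4, and of -0.075 to 0.047 in the other libraries. The part of cell composition, of RNA quality and of gene length in the level of the ribosomal protein genes was not tested.

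**Figure D3:**
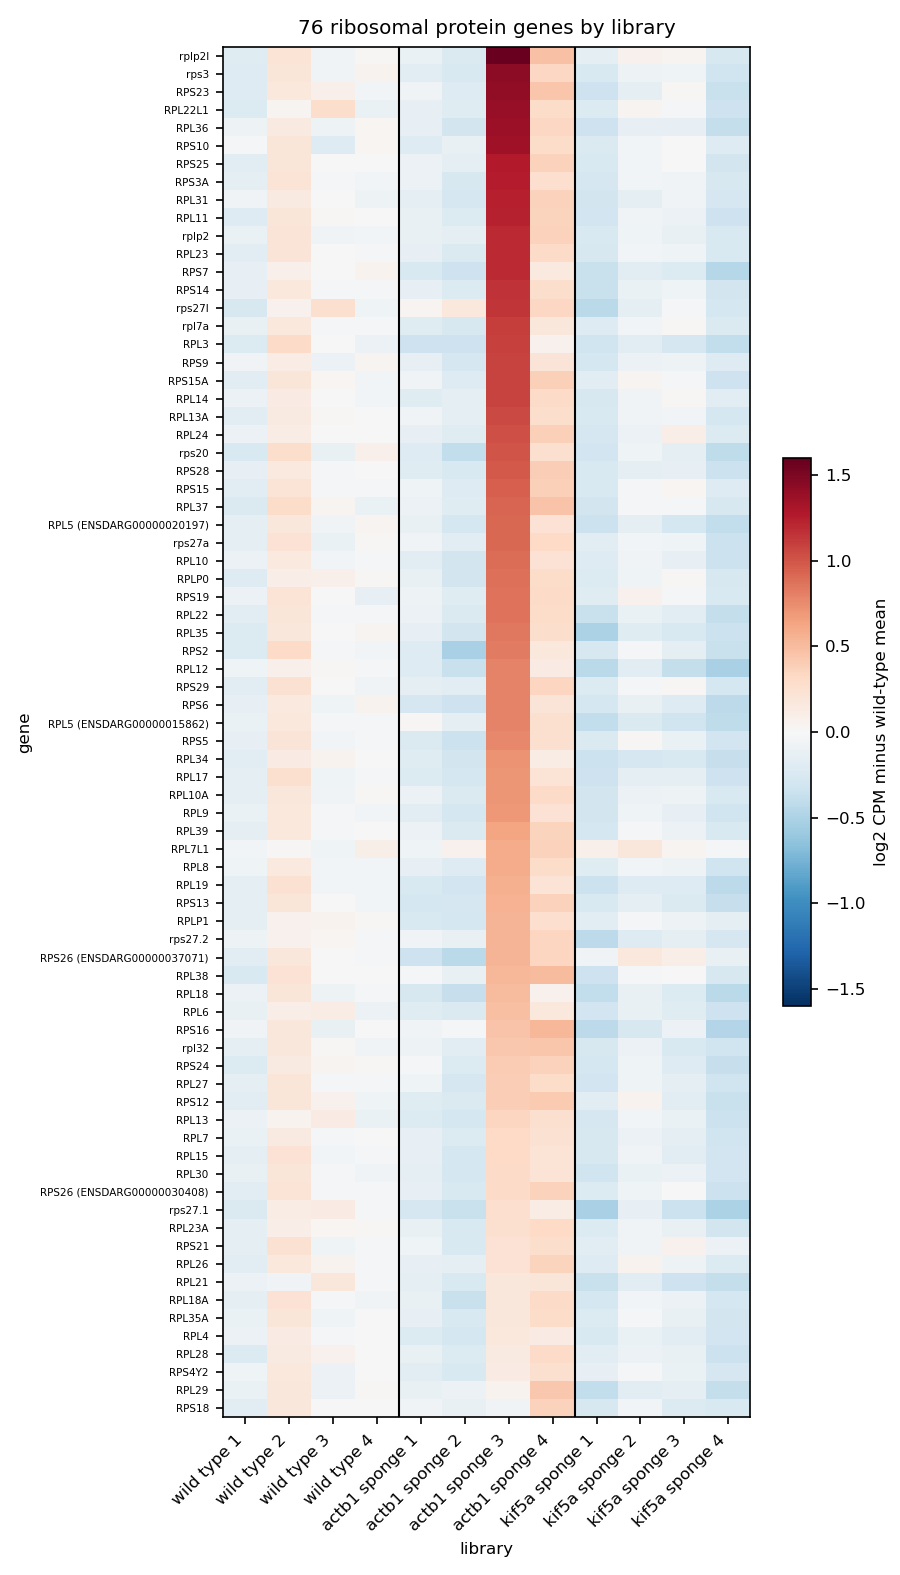
Deviation of 76 of the 81 genes (rows, ordered by the value in actb1 sponge 3) from its wild-type mean in log2 CPM in each of the 12 libraries (columns), on a colour scale centred at 0. Whole columns share a colour, high in actb1 sponge 3 and 4 and wild type 2 and low in kif5a sponge 1 and 4, and the depth of colour varies most among genes in actb1 sponge 3.

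As a share of all counts, the 81 genes took 2.51%, 3.09%, 2.57% and 2.75% in wild type 1 to 4, a mean of 2.73% ± 0.261 (SD, n = 4). In the actb1 sponge libraries they took 2.45%, 2.31%, 5.09% and 3.10% (3.24% ± 1.28, and a mean of 2.62% without actb1 sponge 3), and in the kif5a sponge libraries 2.34%, 2.60%, 2.57% and 2.25% (2.44% ± 0.174). Per gene length, the shares were 5.11% ± 0.448, 5.96% ± 2.39 and 4.66% ± 0.283 of all TPM. The widest spread was that of the actb1 sponge group, in which actb1 sponge 3 stood at 9.50% of all TPM.

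The first comparison asked how ribosomal protein genes differed between the actb1 sponge line and wild type. Of 81 genes, 78 had a positive log2 fold change and 3 a negative one, with a median of 0.24, against a median of -0.03 and 46.1% positive over all tested genes. At a Benjamini-Hochberg adjusted p under 0.05 by edgeR's quasi-likelihood test, 0 of the 81 genes were called, where 0.738% of all tested genes were. By the unadjusted p of that test, 1 gene (1.23%) was under 0.05, against 16.7% of all. DESeq2 called 0, with 2 genes (2.47%) at an unadjusted p under 0.05, against 4.75% of all genes called and 18.3% under 0.05. Limma-voom called 0, with 0 under 0.05, against 0.463% and 15.9%. The 4 libraries of the groups did not overlap for 0 genes in either direction, where 4.08% of all genes were higher without overlap and 5.25% lower.

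These values depended on single libraries. Without actb1 sponge 3 the median was 0.023, with 50 genes positive, 31 negative and 0 at an unadjusted p under 0.05, where 15.4% of all genes were. Without actb1 sponge 2 it was 0.38, with 81 positive and 38 genes (46.9%) at an unadjusted p under 0.05, against 19.3% of all. Without actb1 sponge 1 it was 0.32, with 18 such genes (22.2%), against 17.7%. None of the 81 genes was called in these fits. Of all tested genes, 0.529% were called without actb1 sponge 3, 0.265% without actb1 sponge 2 and 0.397% without actb1 sponge 1.

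The smallest p belonged to rps27l, an RPS27 paralogue that p53 can induce in human cells. Wild type 1 to 4 had 13.3, 16.6, 18.9 and 15.1 CPM, and actb1 sponge 1 to 4 had 16.4, 17.8, 35.1 and 20.0 CPM. The groups overlapped, and the highest value by far was that of actb1 sponge 3. The log2 fold change was 0.48 ± 0.22 (SE), with an adjusted p of 0.287 (edgeR quasi-likelihood, Benjamini-Hochberg), and 0.20 ± 0.14 without actb1 sponge 3.

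Among the 6 genes of smallest p was also rplp2l, whose protein forms the mobile stalk together with RPLP0 and RPLP1. The wild-type libraries had 128, 171, 141 and 149 CPM of it, and the actb1 sponge libraries 135, 125, 436 and 203 CPM. Only actb1 sponge 3 and 4 lay above wild type, and the log2 fold change of 0.61 ± 0.32 had an adjusted p of 0.348 by the same edgeR test. It was 0.10 ± 0.17 without actb1 sponge 3. RPS23, a protein of the decoding centre, had 242, 314, 296 and 271 CPM in wild type, against 269, 242, 747 and 382 CPM, again with actb1 sponge 3 and 4 above wild type, and a log2 fold change of 0.55 ± 0.29, or 0.11 ± 0.16 without actb1 sponge 3. RPS25, which viral internal ribosome entry sites need, had a log2 fold change of 0.46 ± 0.26 and RPL7L1 of 0.26 ± 0.13, neither of them past the threshold. They were 0.083 ± 0.14 and 0.16 ± 0.11 without actb1 sponge 3.

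The second comparison set the kif5a sponge line against wild type. Here 79 genes had a negative log2 fold change and 2 a positive one, RPL7L1 (0.07) and the RPS26 gene ENSDARG00000037071 (0.02). The median was -0.19, against -0.01 and 51.1% negative over all tested genes, and both subunits had a median of -0.19. Again 0 genes were called by edgeR's quasi-likelihood test after Benjamini-Hochberg adjustment (background 0.534%), with 4 genes (4.94%) at an unadjusted p under 0.05, against 11.3% of all. DESeq2 and limma-voom also called 0, where they called 2.22% and 0.524% of all genes. They had 6 (7.41%) and 4 genes at an unadjusted p under 0.05, against 12.7% and 9.40% of all. With only the libraries of these groups in the fit, 33 genes (40.7%) had an unadjusted p under 0.05, against 16.5% of all. In that fit 0 were called, against 0.636% of all. Without actb1 sponge 3, a library that enters the shared estimate of spread, 13 genes (16.0%) had an unadjusted p under 0.05, against 14.9%. There 0 were called, against 0.784% of all.

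All 4 kif5a sponge libraries were below all 4 wild-type libraries for 14 genes (17.3%), against 4.99% of all tested genes, and above them for 0, against 4.26%. Leaving out a library can only keep or raise that count, so it does not check the 14. It was 48 without wild type 1, where 7.52% of all genes were separated downward, and 35 without kif5a sponge 2, where 6.31% were. The genes among the 14 that are described here are RPL5 (ENSDARG00000015862), RPL12, RPL21, RPL29, RPS7 and rps27.2. The median over the 81 genes stayed negative, between -0.24 and -0.13, whichever of the 8 libraries was left out.

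**Figure D4:**
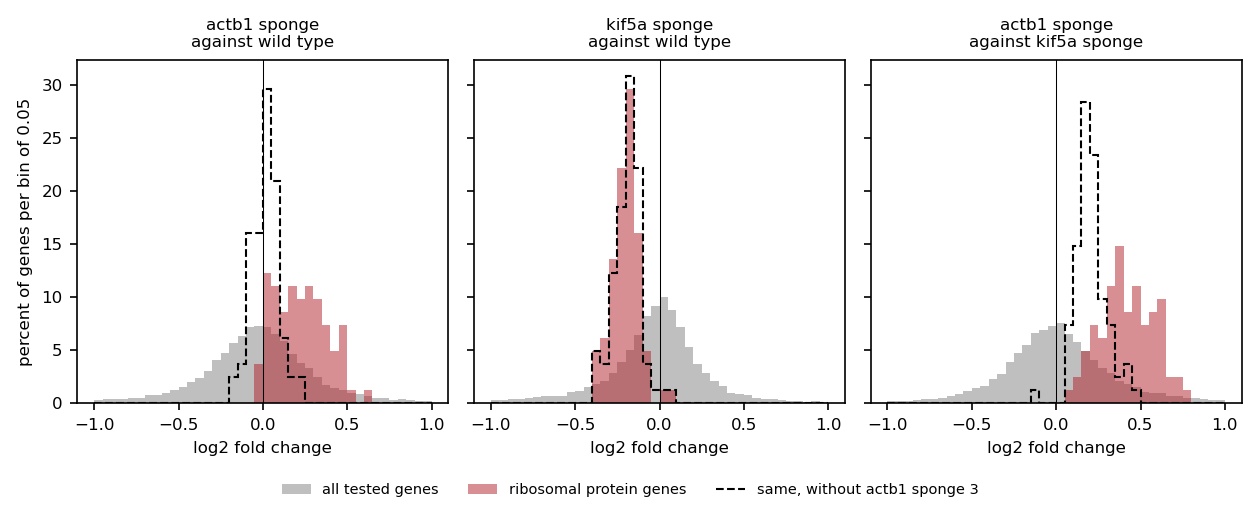
Distribution of log2 fold changes for the 81 genes and for all tested genes in the 3 comparisons, as percent of genes per bin, with the fit without actb1 sponge 3 as a dashed line. The genes centre at 0.24, -0.19 and 0.41, and without actb1 sponge 3 the distributions for the actb1 sponge line move to 0.023 against wild type and 0.20 against the kif5a sponge line.

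RPL21 had 327, 335, 396 and 344 CPM in wild type, against 273, 309, 279 and 268 CPM in the kif5a sponge line. Every kif5a sponge library was below every wild-type one, and the log2 fold change was -0.31 ± 0.11 (adjusted p 0.320 by edgeR). For rps27.1, a small-subunit gene with a near neighbour in rps27.2, the levels were 248, 317, 318 and 287 CPM against 203, 267, 228 and 205 CPM. Here kif5a sponge 2 lay within the wild-type range, and the log2 fold change was -0.37 ± 0.15 (adjusted p 0.368 by edgeR). RPL29 had a log2 fold change of -0.28 ± 0.13 and RPS16 of -0.31 ± 0.15, and neither passed the threshold.

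Microglial markers had the same sign in this comparison: 9 of 9 had a negative log2 fold change, with a median of -0.86, and 0 were called. They summed to 398 to 576 CPM in wild type, against 318 to 455 CPM in the kif5a sponge line. Their median deviation was -0.85, 0.58, -0.85 and 1.41 in wild type 1 to 4. In kif5a sponge 1 to 4 it was -0.82, -0.37, -0.51 and -0.41, within the wild-type range. Oligodendrocyte markers were also mostly negative (7 of 9). Fibroblast and meningeal markers (6 of 8) and rod photoreceptor markers (10 of 12) were mostly positive. The part of cell composition in the lower ribosomal protein levels was not tested.

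The third comparison set the lines against each other. All 81 genes had a higher fitted level in the actb1 sponge line than in the kif5a sponge line, with a median log2 fold change of 0.41, against 0.00 and 49.4% positive over all tested genes. After Benjamini-Hochberg adjustment, edgeR's quasi-likelihood test called 0 (background 1.18%), with 41 genes (50.6%) at an unadjusted p under 0.05, against 16.2% of all. Limma-voom called 0, against 1.02% of all genes, with 17 genes (21.0%) at an unadjusted p under 0.05, against 16.7% of all. DESeq2 called 6 (7.41%), all higher, where it called 2.52% of all genes higher and 4.84% in either direction, and had 56 genes (69.1%) at an unadjusted p under 0.05, against 17.7% of all. Among the 6 were RPL5 (ENSDARG00000015862), RPS16, rps27.2 and rps27l. Without actb1 sponge 3 the median was 0.20, 80 genes stayed positive, and 10 (12.3%) had an unadjusted p under 0.05, against 14.9% of all genes. Without actb1 sponge 2 there were 77 such genes (95.1%), against 19.4% of all.

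The libraries of the lines did not overlap for 7 genes (8.64%), all higher in the actb1 sponge line, against 4.68% of all tested genes, and 0 were lower without overlap, against 5.7%. They are the 6 genes called by DESeq2 and RPL29. The count was 16 without actb1 sponge 2 and 12 without kif5a sponge 2, where 6.86% and 6.25% of all genes were higher without overlap. It was 7 (8.64%) without actb1 sponge 3, against 7.51%, but leaving out a library cannot lower such a count. Because this comparison shares its libraries with the other 2, its values restate the same measurements. The microglial markers were higher in the actb1 sponge line for 9 of 9 genes, with a median of 0.84 and 0 called. That median was 0.55 without actb1 sponge 3, with 9 of 9 positive. By library, the median deviation of these markers was -0.46, -0.53, 0.71 and 0.39 in actb1 sponge 1 to 4, so the lines overlapped.

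RPS16, whose tail reaches the tRNA in the P site, had 252, 256, 360 and 380 CPM in the actb1 sponge line and 195, 219, 246 and 189 CPM in the kif5a sponge line. These libraries were fully apart, with a log2 fold change of 0.56 ± 0.15 and an adjusted p of 0.0915 by edgeR. The log2 fold change was 0.50 ± 0.15 without actb1 sponge 3.

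RPL5 and RPL11 carry the 5S RNA into the large subunit and, outside the ribosome, bind MDM2 and so stabilise p53. RPL5 (ENSDARG00000015862) had 407, 362, 693 and 481 CPM in the actb1 sponge line and 305, 343, 321 and 303 CPM in the kif5a sponge line. Wild type, at 372, 452, 392 and 394 CPM, lay above every kif5a sponge library and within the actb1 sponge range. The log2 fold change between the lines was 0.61 ± 0.17 (adjusted p 0.101 by edgeR), and 0.41 ± 0.11 without actb1 sponge 3. RPL11 had a log2 fold change of 0.63 ± 0.26 in the same comparison, or 0.24 ± 0.15 without actb1 sponge 3, and its libraries overlapped.

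Ordered by role, the genes gave medians of like sign in the fit of all 12 libraries, with 0 called in any role and comparison. The 4 stalk genes had a median log2 fold change of 0.35 in the actb1 sponge line and -0.12 in the kif5a sponge line, each against wild type. The 3 genes for the partners of 5S RNA had 0.27 and -0.29, and the 3 genes of the peptide exit tunnel 0.15 and -0.21. The 4 genes for proteins at mRNA entry and decoding had 0.42 and -0.19, and those at the mRNA exit side 0.21 and -0.18. RPS6, the substrate of S6 kinase, had log2 fold changes of 0.17 ± 0.20 and -0.26 ± 0.20. The 14 genes mutated in human Diamond-Blackfan anaemia had medians of 0.21 and -0.18. Without actb1 sponge 3 the medians in the actb1 sponge line lay closer to 0. They were 0.042 for the stalk genes, 0.051 for the partners of 5S RNA, -0.059 for the exit tunnel, 0.044 for mRNA entry and decoding, 0.027 for the exit side and 0.037 for the Diamond-Blackfan genes, with -0.084 ± 0.14 for RPS6. In the kif5a sponge line they were -0.28 to -0.12 in the fit without that library. The differences among roles were of the size of the standard errors of single genes, which ran from 0.107 to 0.317. Those errors include the variation between libraries that the genes share, so they do not measure a difference between roles. Whether roles differed was not tested.

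For 9 pairs of gene copies or paralogues, the ratio of their counts within a library was compared, since a shift that both genes share cancels in it. In 27 exact two-sided permutation tests, 4 reached the smallest p that 4 against 4 libraries allow, 0.0286. None was under 0.05 after Benjamini-Hochberg adjustment (0.193 for those 4). With that smallest p and 27 tests, no pair could pass on its own, so the adjusted result cannot tell whether a ratio differed. The ratio of rps27.1 to rps27.2 was 0.966 to 1.14 in wild type and 0.880 to 0.916 in the actb1 sponge line, a log2 difference of -0.24, and -0.23 without actb1 sponge 3. The ratio of rps27.1 to rps27l was 16.9 to 19.1 in wild type and 9.96 to 15.9 in the actb1 sponge line, a difference of -0.49, and -0.35 without actb1 sponge 3. These ratios were lower in 4 of 4 actb1 sponge libraries, but both have rps27.1 as their first gene and so are not independent.

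In the kif5a sponge line, the ratio of the RPS26 genes ENSDARG00000030408 and ENSDARG00000037071 was 0.881 to 0.958, against 1.01 to 1.06 in wild type, a log2 difference of -0.18. The ratio of RPL7 to RPL7L1 was 19.0 to 20.9, against 22.4 to 26.1, a difference of -0.27. Both were lower in 4 of 4 kif5a sponge libraries. RPL7L1 and RPS26 gene ENSDARG00000037071 were the 2 members with a positive log2 fold change in this line (0.07 and 0.02). The median over the 81 genes was -0.19, so the shift of the family does not cancel in these ratios. The ratio of RPL7 to RPL7L1 was lower on average in the actb1 sponge line as well, at 19.7 to 22.8, which overlapped wild type. The log2 difference there was -0.19, and -0.16 without actb1 sponge 3. The groups overlapped in the ratio of the RPL5 genes, of rplp2 to rplp2l, and of RPL22 to RPL22L1. Near-identical copies can share reads, so that these ratios may understate a difference between copies.

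**Figure D5:**
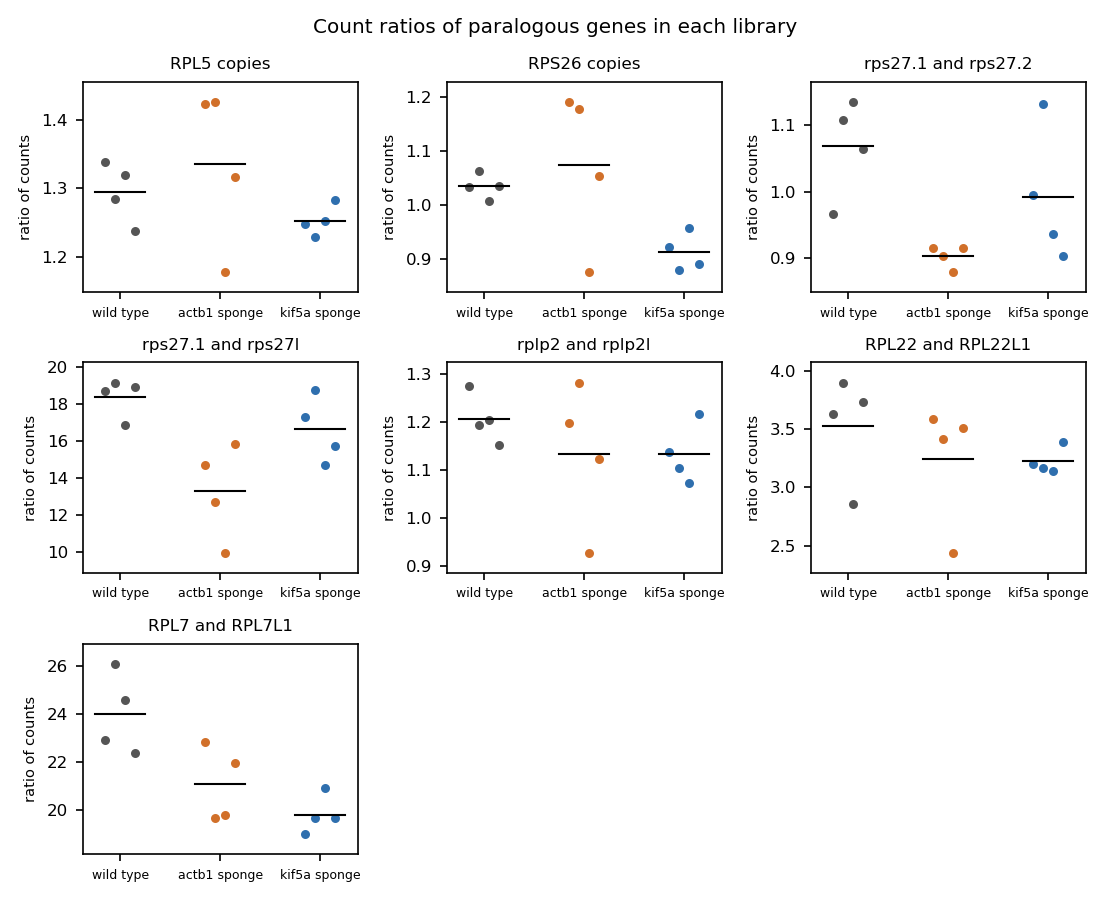
Ratio of counts between the genes of 7 of the 9 pairs in every library (points) by group, with a bar at the mean of a group, on linear axes that do not start at 0. The actb1 sponge points lie below the wild-type points for rps27.1 over rps27.2 and over rps27l, and the kif5a sponge points lie below them for the RPS26 genes and for RPL7 over RPL7L1.

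Of the 4 genes outside the selection by symbol, RPSA2, RPL36AL and RACK1 were highest in actb1 sponge 3 and FAU in actb1 sponge 4. RPSA2 stood at 648 to 794 CPM in wild type, at 1620 CPM in actb1 sponge 3 and at 576 to 681 CPM in the kif5a sponge line. RPL36AL was at 274 to 359 CPM in wild type, against 904 CPM in actb1 sponge 3, while FAU reached 276 CPM there and 292 CPM in actb1 sponge 4. RACK1 was at 484 to 587 CPM in wild type, against 403 to 476 CPM in the kif5a sponge line, where all 4 libraries lay below those of wild type.

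Other genes of translation had medians nearer 0 than the ribosomal protein genes in the fit of all 12 libraries. Of 32 genes for elongation factors and other TOP mRNAs, 25 were positive in the actb1 sponge line and 25 negative in the kif5a sponge line, each against wild type, with medians of 0.08 and -0.09 and 0 called by edgeR. Of 30 initiation genes, 23 and 17 were positive, with medians of 0.12 and 0.01 and 0 called. The 66 genes of ribosome biogenesis were mostly positive in both lines, with 48 and 50 positive and medians of 0.11 and 0.10, and the 73 mitochondrial ribosomal protein genes likewise, with 56 and 53 positive and medians of 0.11 and 0.05. In the kif5a sponge line the biogenesis genes and the ribosomal protein genes thus had medians of opposite sign. Of 11 RNA polymerase I genes, 8 and 9 were positive and 0 were called. Of 34 genes listed for mTOR signalling and TOP mRNA control, 14 were positive in each line. That list also holds RPS6KA kinase and MYC family genes, and inhibitors beside activators, so its count of signs gives no direction for the pathway. Of 13 genes of ribosome stalling, recycling and quality control, 9 and 10 were positive and 0 were called. Without actb1 sponge 3 the medians in the actb1 sponge line were 0.012 for elongation factors and other TOP mRNAs, with 18 of 32 positive, 0.11 for initiation, 0.062 for biogenesis and 0.12 for mitochondrial ribosomal proteins. The ribosomal protein genes had a median of 0.023 in that fit, nearer 0 than initiation, biogenesis and mitochondrial ribosomal protein genes.

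A few genes of these lists were called, by edgeR's quasi-likelihood p after Benjamini-Hochberg adjustment. In the actb1 sponge line against wild type they were 1 of 66 biogenesis genes, 1 of 73 mitochondrial ribosomal protein genes and 1 of 9 proliferation markers, against 0.738% of all tested genes. In the kif5a sponge line it was 1 of the 34 genes listed for mTOR signalling and TOP mRNA control, against 0.534%. No list gene was called between the lines, against 1.18%. The calls describe single genes, not the lists. SBDS, which takes part in releasing eIF6 from the maturing large subunit, stood at 25.3, 25.8, 25.3 and 23.1 CPM in wild type, against 37.0, 34.7, 40.3 and 36.3 CPM in the actb1 sponge line. Its groups were far apart, with a log2 fold change of 0.57 ± 0.08 and an adjusted p of 0.0060, and it was called in 8 of 8 fits that left out 1 library. In the kif5a sponge line it stood at 31.5, 31.9, 33.8 and 33.4 CPM, also above wild type in every library, without being called.

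MRPL46, a mitochondrial ribosomal protein gene, rose by a log2 of 0.52 ± 0.10 in the actb1 sponge line (edgeR adjusted p 0.0405). That call was lost without wild type 1, 2 or 4 or actb1 sponge 1 or 2, and the adjusted p over the 8 fits ran from 0.0333 to 0.106. In the kif5a sponge line eif4ebp3 (ENSDARG00000054916), of the 4E-BP family that inhibits cap-dependent initiation, fell from 6.69 ± 1.05 to 3.49 ± 0.718 CPM (SD, n = 4). The log2 fold change was -0.94 ± 0.18 (edgeR adjusted p 0.0395). That call was kept only without wild type 3 or kif5a sponge 4, with adjusted p-values of 0.0416 to 0.144 over the 8 fits. The other gene of that symbol, written EIF4EBP3 (ENSDARG00000041607), was not called, nor were eif4ebp1 and EIF4EBP2. RRM2 (ENSDARG00000078069), a ribonucleotide reductase subunit gene used as a proliferation marker, fell from 2.90 ± 1.77 to 0.380 ± 0.288 CPM in the actb1 sponge line. In the kif5a sponge line it was also low, at 0.705 ± 0.171 CPM, without being called. These levels lie near the minimum of 0.5 CPM, and wild type 2 had 0.948 CPM. The log2 fold change in the actb1 sponge line was -2.92 ± 0.60 (edgeR adjusted p 0.0471), a call kept only without wild type 2 or actb1 sponge 1. Another gene of that symbol was not called. Of the 9 proliferation markers, 5 were positive and 4 negative in this comparison, with a median of 0.063. Without actb1 sponge 3, 3 were positive and 6 negative, with a median of -0.31.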

How the data were processed

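Total brain RNA was made into libraries with the TruSeq RNA kit v2, per the labels' protocols, a kit that does not mark strand. The submitters' processing notes name build GRCz10 and, as tools, featureCounts 1.4.6-p4, STAR 2.4.1d and bcl2fastq 1.8.4. The sources used here do not give the annotation release. The authors deposited whole-number counts per gene, which entered every test, and RPKM values for the same genes. Over 6540 genes with at least 500 counts in each library, the deposited RPKM values followed the 12 library totals recycled down the genes (residual coefficient of variation 1.48e-05, against 0.179 with each library's own total), so they served only to recover gene lengths for TPM. Symbols from a supplied name table matched 26269 of 32105 identifiers (81.8%).

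Genes above 0.5 CPM in at least 4 libraries (19645 genes, 99.9% of counts) were fitted in 1 model of 3 groups with TMM factors with the edgeR 4.0.16 quasi-likelihood test (R 4.3.3), with Benjamini-Hochberg adjustment within each comparison and a threshold of 0.05. Deviations are from log2 CPM with a prior count of 2. Fold changes are given with the standard error of the fit. A chi-square test of counts between libraries of a group gave 9.60 to 270 per degree of freedom, above sampling noise, and none was treated as a duplicate. The code was tested on simulated counts.

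Alternatives were other scaling factors, library totals, TMM without the members and mitochondrial genes, no filter, a minimum of 2 CPM, DESeq2 1.42.0, limma-voom (limma 3.58.1), fits of only the groups compared, and leaving out each library. The members and all lists (translation, biogenesis, mTOR and cell type markers) were chosen with earlier results of these data known, so no list was tested as a set. Genes named with values are the 6 of highest TPM, the 6 of smallest p in each comparison, the 4 of largest and of smallest variation in wild type, all paralogue pairs and those nearest the CPM minimum. RPS18, RPL3, RPL11 and RPS6 were added for their place or role. From the lists, called genes are named. Some genes that this rule takes are not reported here. A planned search for pyrimidine runs at gene starts was not run, since no sequence was used here.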

Additional observations from a re-analysis of the deposited data

Results flagged for a closer look

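The ratio of RPL22 to RPL22L1 counts, a ribosomal protein gene and its paralogue, was 2.44 in actb1 sponge 3 and 3.42 to 3.59 in the other 3 actb1 sponge libraries. Its gap to the nearest library was 0.849 of the range of the group, above the Dixon limit for 4 samples. It was the 1 library that stood out in 108 groups of 4 examined, where chance marks about 1 in 20 groups.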

How the results depend on the processing

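For the 81 genes, the number called was 0 in the 3 comparisons under all alternatives but DESeq2, which called 6 higher in the actb1 sponge line than in the kif5a sponge line. Under the alternatives other than DESeq2, 0.370% to 1.25% of all genes in the fits were called. With each library left out in turn, the number of the 81 genes called was 0 in each comparison. In those fits 0.178% to 1.27% of all tested genes were called. The median log2 fold change kept its sign: over the 9 other settings it ran from 0.17 to 0.28 for the actb1 sponge line against wild type, from -0.19 to -0.15 for the kif5a sponge line against wild type, and from 0.36 to 0.44 between the lines, and with 1 library left out from 0.023 to 0.38, from -0.24 to -0.13 and from 0.20 to 0.56. With mitochondrial genes out of the total, the mean share of counts was 3.08% in wild type and 2.74% in the kif5a sponge line, and 3.54% in the actb1 sponge line. With 1 library left out the mean share was 2.61% to 2.80% in wild type, 2.62% to 3.55% in the actb1 sponge line and 2.39% to 2.51% in the kif5a sponge line. Some results for fewer genes did change sign. Without actb1 sponge 3, the median of the exit tunnel genes and the fold change of RPS6 turned negative in the actb1 sponge line against wild type. No paired analysis was possible because the replicate numbers were given in accession order and carry no pairing. The search for pyrimidine runs was not run. Depth sets no limit here, since even the least abundant of the 81 genes, rps27l, had 5955 counts over the 12 libraries. The spread between libraries is what limits the tests.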
